A study of Mus musculus with 9 samples.

Results

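The 8 genes Ren1, Agt, Ace, Agtr1a, Mme, Enpep, Atp6ap2 and Agtrap, members of the renin-angiotensin system, were followed in mouse kidney. They were found by symbol, and each is 1 of the 22161 gene rows of the deposited expression table. The series compared whole-kidney poly(A) RNA from 3 groups of 3 C57BL/6 mice, a model of adult-onset autosomal dominant polycystic kidney disease. Double knockout mice (DKO) carried Ift88fl/fl;Pkd2fl/fl;Pax8rtTA;TetO-cre, Pkd2 knockout mice (KO) carried Pkd2fl/fl;Pax8rtTA;TetO-cre, and the remaining group is labelled wild type (WT). From postnatal day 28 every mouse, WT included, was given oral doxycycline at 2 mg/ml over 2 weeks, and kidneys were collected at 10 weeks of age, which is postnatal day 70. Pkd2 encodes the polycystin-2 channel and Ift88 a transport protein that cilia need for assembly. Doxycycline switches on the cre in the mutants. The Pax8 driver is active in tubule cells, so renin-producing cells, vessels and mesangium are not among the cells it targets. DKO 1, KO 1, WT 1 and so on denote single mice.

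Renin, released by juxtaglomerular cells at the glomerular arteriole, cuts angiotensinogen to angiotensin I, and angiotensin-converting enzyme turns this into angiotensin II. Angiotensin II constricts vessels, raises tubular salt uptake and stimulates aldosterone through its type 1 receptor. Peptidases of the tubule surface then trim or destroy the peptides, so the kidney holds a local system beside the circulating one.

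The start-site windows of Ren1 and Agt are shown because these genes encode the enzyme and the substrate of the first step, and both carry a TATA box. RefSeq windows (GRCm38.p6) run from 250 bases before to 50 bases after the start of a transcript, and 7 of the 8 genes matched at least 1, with 10 windows in all. Agtr1a had none. Capitals mark TATAAA and TGATNNAT. The second is a pattern bound by paired Pbx and Hox factors, which are known to act on the mouse renin gene. Both strands were searched, and the 2 patterns do not share bases in these windows.
Ren1, chr1:133350424-133350723, plus strand: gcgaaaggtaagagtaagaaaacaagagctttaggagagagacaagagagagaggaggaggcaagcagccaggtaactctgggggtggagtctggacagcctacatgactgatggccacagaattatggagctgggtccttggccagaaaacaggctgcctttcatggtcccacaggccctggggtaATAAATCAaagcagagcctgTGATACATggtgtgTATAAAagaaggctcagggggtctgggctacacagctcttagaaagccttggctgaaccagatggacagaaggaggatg
Agt, chr8:124569657-124569956, minus strand: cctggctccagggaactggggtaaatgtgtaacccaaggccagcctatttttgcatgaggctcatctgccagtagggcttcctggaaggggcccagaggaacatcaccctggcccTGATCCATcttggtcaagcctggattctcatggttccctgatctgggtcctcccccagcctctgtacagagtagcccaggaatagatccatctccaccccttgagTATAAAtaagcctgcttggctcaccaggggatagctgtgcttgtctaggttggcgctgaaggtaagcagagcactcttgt
TATAAA begins at position -29 in Ren1 and at -30 in Agt, counted back from the start site. TGATNNAT occurs in Ren1 at -63, on the reverse strand, and at -43, and in Agt at -135. Among 32851 RefSeq windows of the same length, 13.6% hold TATAAA and 8.85% hold TGATNNAT. A reverse-strand TATAAA was also found for Enpep at -52 and -1 and for Ace at -31, and a reverse-strand TGATNNAT for Atp6ap2 at -92. These matches are letters in a window and were not tested as binding sites.

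Normalized totals were 40454151 to 42874467 per library. All 8 members, at 1622 normalized counts or more in every mouse, were among the 15740 genes tested. Pkd2 averaged 4687 ± 789 normalized counts in DKO and 5118 ± 414 in KO kidneys, against 14095 ± 375 in WT, and Ift88 averaged 752 ± 71.4 in DKO, 1140 ± 66.0 in KO and 1085 ± 41.0 in WT (SD, n = 3 each). WT 3 and KO 3 have mouse names with another prefix than the other mice of their group, and the prefix cannot be told apart from genotype, since no prefix occurs in 2 groups. KO 3 had the highest summed level of adipocyte markers (6177 normalized counts, against 1724 to 4573 in the other mice) and of erythroid markers (6174, against 87.2 to 1012), and the part of this in the results was not tested. Adrenal cortex markers summed to 104 to 168 per mouse, most of it Star. Cyp11a1, Cyp11b1 and Cyp21a1, steroid-making enzymes picked after their values were seen, stood at 4.02 normalized counts or less in each mouse. All values below are normalized counts, and differences between groups are given as log2(normalized count + 1), with their standard error. Calls rest on limma, fitted over all genes tested, at a Benjamini-Hochberg threshold of 0.05, and the mice of a group were taken as independent.

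No renin-angiotensin gene was called in any comparison. DKO kidneys against WT gave 0 of 8 members called, where 0.229% of all genes tested were called. DKO against KO gave 0 of 8, beside 0.394% of all genes, and KO against WT gave 0 of 8, beside 2.40%. At an unadjusted limma p below 0.05, 1 member passed in DKO against WT (Enpep, higher), 2 in DKO against KO (Mme higher, Agtr1a lower) and 1 in KO against WT (Mme, lower), and all genes passed at 11.7%, 10.7% and 18.0%. edgeR and DESeq2 on the 7 libraries with recovered reads also called 0 of 8 in each comparison. Of 15740 genes, edgeR called only 11 in KO against WT and 10 in DKO against KO, so its 0 of 8 adds little. DESeq2 called 296 and 149 in the same comparisons, and counts for DKO against WT are given further below. The 3 comparisons share libraries, so they are not independent of each other. In whole kidney, fewer cells of a type and less RNA per cell cannot be told apart.

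The intervals were narrow for most members. All 24 unadjusted 95% limma intervals, 8 genes in 3 comparisons, lay within a 1.5-fold change in either direction, with bounds from -0.56 to 0.57 on the log2 scale. The half-width was 0.16 for Atp6ap2 and 0.32 for Ren1, the narrowest and the widest. The median log2 fold change of the members was -0.01 in DKO against WT, 0.04 in DKO against KO and -0.02 in KO against WT. Over all genes tested it was -0.0010, 0.0046 and 0.0043 in the same order, and the median absolute value was 0.14, 0.12 and 0.16.

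**Figure D1:**
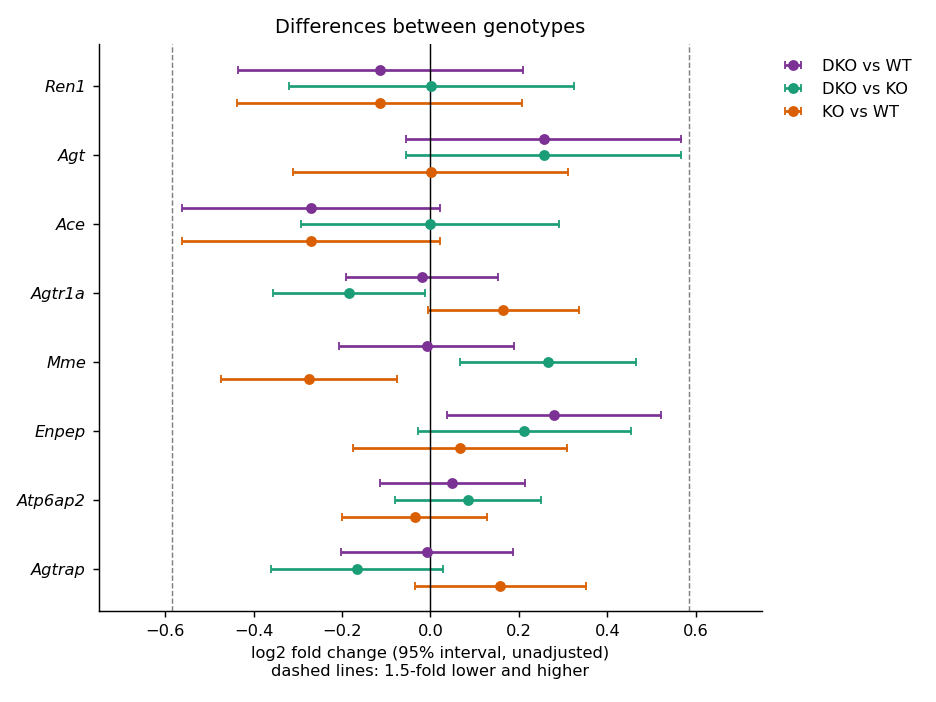
Log2 fold changes of the 8 genes (points) with unadjusted 95% limma intervals (bars) for DKO against WT, DKO against KO and KO against WT. All 24 bars lie inside the dashed lines at 1.5-fold lower and higher, and 4 of them leave out 0: Enpep in DKO against WT, Mme and Agtr1a in DKO against KO, and Mme in KO against WT.

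Ren1, on chromosome 1, encodes renin. It stood at 2528, 1961 and 1977 normalized counts in DKO 1 to 3, at 2333, 2058 and 2034 in KO 1 to 3, and at 2144, 2037 and 2839 in WT 1 to 3. The groups overlapped, and the highest values came from WT 3 and DKO 1. Means were 2155 ± 323 in DKO, 2142 ± 166 in KO and 2340 ± 435 in WT (SD, n = 3 each). The log2 difference was -0.11 ± 0.14 in DKO against WT (95% interval -0.44 to 0.21, limma adjusted p = 0.807), 0.00 ± 0.14 in DKO against KO (-0.32 to 0.32, adjusted p = 0.999) and -0.11 ± 0.14 in KO against WT (-0.44 to 0.21, adjusted p = 0.719). Without WT 3 and KO 3 the first turned to 0.03 and the last to 0.07. Among the members Ren1 varied most between mice of a group for its level: its residual SD exceeded that of 83.7% of genes within 2-fold of its mean.

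Cells that make renin are rare in the kidney, and markers of these cells and of their smooth muscle neighbours are given beside Ren1. Akr1b7, an aldo-keto reductase of renin cells picked for that role after its values were seen, averaged 76.3 ± 14.0 in DKO, 81.1 ± 7.47 in KO and 98.9 ± 17.5 in WT kidneys and was not called (limma adjusted p from 0.517 to 0.926 over the 3 comparisons). Of 12 juxtaglomerular and vascular smooth muscle markers, 0 were called in any comparison, and all 12 had a negative fold change in DKO against WT, with a median log2 of -0.23. Their summed level was 6265 to 6915 in DKO, 5916 to 8888 in KO and 7756 to 9224 in WT mice. In this sum every DKO mouse thus lay below every WT mouse. Singly, this held for only 2 of the 12 markers, and for 0 did every DKO mouse lie above. Over all genes tested the groups did not overlap for 18.3% in DKO against WT, in either direction. None of these markers was at 0 in all mice. The most abundant of them, Rgs5, a brake on G-protein signalling in mural cells, averaged 1417 ± 146 in DKO, 1662 ± 294 in KO and 1903 ± 60.4 in WT, a log2 difference of -0.43 ± 0.13 in DKO against WT (limma adjusted p = 0.252). The part of this marker level in the Ren1 values was not tested.

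Genes that act on renin release were described from a list of 20, of which 17 were tested. In KO against WT 1 fell and 0 rose, with a median log2 of -0.17. In DKO against KO and in DKO against WT 0 were called, with medians of 0.13 and -0.19. The gene that fell was Casr, the calcium-sensing receptor of the thick ascending limb and of juxtaglomerular cells, where calcium restrains renin release. It stood at 2286, 2002 and 2076 in KO and at 3274, 3090 and 3595 in WT mice, without overlap, a log2 fold change of -0.65 ± 0.08 (limma adjusted p = 0.00525). DKO mice lay between, at 2607, 2652 and 2720, and did not pass against KO (0.33 ± 0.08, limma adjusted p = 0.130) or WT (-0.32 ± 0.08, adjusted p = 0.167). The Casr call held without any 1 library (highest adjusted p = 0.0345) and was missed by edgeR on 7 libraries (adjusted p = 0.0826) and made by DESeq2 on the same libraries (9.01e-06). The macula densa genes Ptgs2, Nos1 and Pappa2 were picked for their role after their values were seen. Ptgs2, the inducible cyclooxygenase, averaged 62.6 ± 11.0 in DKO, 81.6 ± 32.8 in KO and 79.5 ± 12.4 in WT. Nos1, the neuronal nitric oxide synthase, averaged 67.3 ± 13.3, 43.6 ± 12.6 and 63.0 ± 17.7 in DKO, KO and WT. Pappa2, a secreted protease marking macula densa, averaged 47.5 ± 18.2, 32.2 ± 3.47 and 62.0 ± 30.6 in the same groups, and none of these genes was called.

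Agt, on chromosome 8, encodes angiotensinogen, the precursor of all angiotensins, which within the mouse kidney is transcribed mainly in the proximal tubule. It stood at 2436, 3135 and 2096 in DKO 1 to 3, at 2068, 2376 and 1913 in KO, and at 2096, 2174 and 2062 in WT. DKO 2 was the highest mouse by far, and DKO 3 lay within the WT range. Means were 2556 ± 530 in DKO, 2119 ± 236 in KO and 2110 ± 57.4 in WT. The coefficient of variation was thus 20.7% in DKO, 11.1% in KO and 2.72% in WT mice, and the difference in spread was not tested. On the log2 scale the difference was 0.26 ± 0.14 in DKO against WT (95% interval -0.06 to 0.57, limma adjusted p = 0.516), 0.26 ± 0.14 in DKO against KO (-0.06 to 0.57, adjusted p = 0.588) and 0.00 ± 0.14 in KO against WT (-0.31 to 0.31, adjusted p = 0.999). Leaving out 1 library at a time moved the DKO against WT value between 0.10 and 0.39.

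Proximal tubule markers stood beside Agt as follows. Markers of all segments summed to 823379 to 879653 in DKO, 786067 to 794523 in KO and 778651 to 829206 in WT mice, with DKO 2 the highest. Markers of the late segment summed to 115706 to 128139 in DKO, 101925 to 109328 in KO and 124498 to 129937 in WT. In this sum every KO mouse thus lay below every DKO and every WT mouse. Singly, every KO mouse lay below every WT mouse for 4 of the 7 and above for 1, and below every DKO mouse for 2. Over all genes tested the groups did not overlap for 25.2% in KO against WT and 15.2% in DKO against KO, in either direction. Early-segment markers summed to 332133 to 382400 in DKO, 333743 to 369511 in KO and 311093 to 341655 in WT. In KO against WT 1 of 10 all-segment markers fell (Miox, myo-inositol oxygenase, log2 -0.66 ± 0.09, limma adjusted p = 0.00904, but 0.0509 without WT 2). Further, 1 of 7 late markers fell (Cyp7b1, an oxysterol hydroxylase, -0.98 ± 0.14, adjusted p = 0.0118, but 0.0534 without WT 1 and 0.0511 without KO 1), and 1 of 5 early markers rose (Slc5a12, a lactate transporter, 1.04 ± 0.18, adjusted p = 0.0252). The Slc5a12 call was lost without WT 1, WT 2, KO 1 or KO 2, with a limma adjusted p of 0.0999 at most. On the 7 libraries edgeR missed Miox, Cyp7b1 and Slc5a12 (adjusted p of 0.161, 0.193 and 0.275), and DESeq2 called them (0.000155, 0.00143 and 0.00566). In the other comparisons 0 markers of these lists were called, though without DKO 3 Miox passed in DKO against KO (limma adjusted p = 0.0369) and Cyp7b1 in DKO against WT (adjusted p = 0.00980). The part of these markers in the values of Agt and of the peptidases was not tested.

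**Figure D2:**
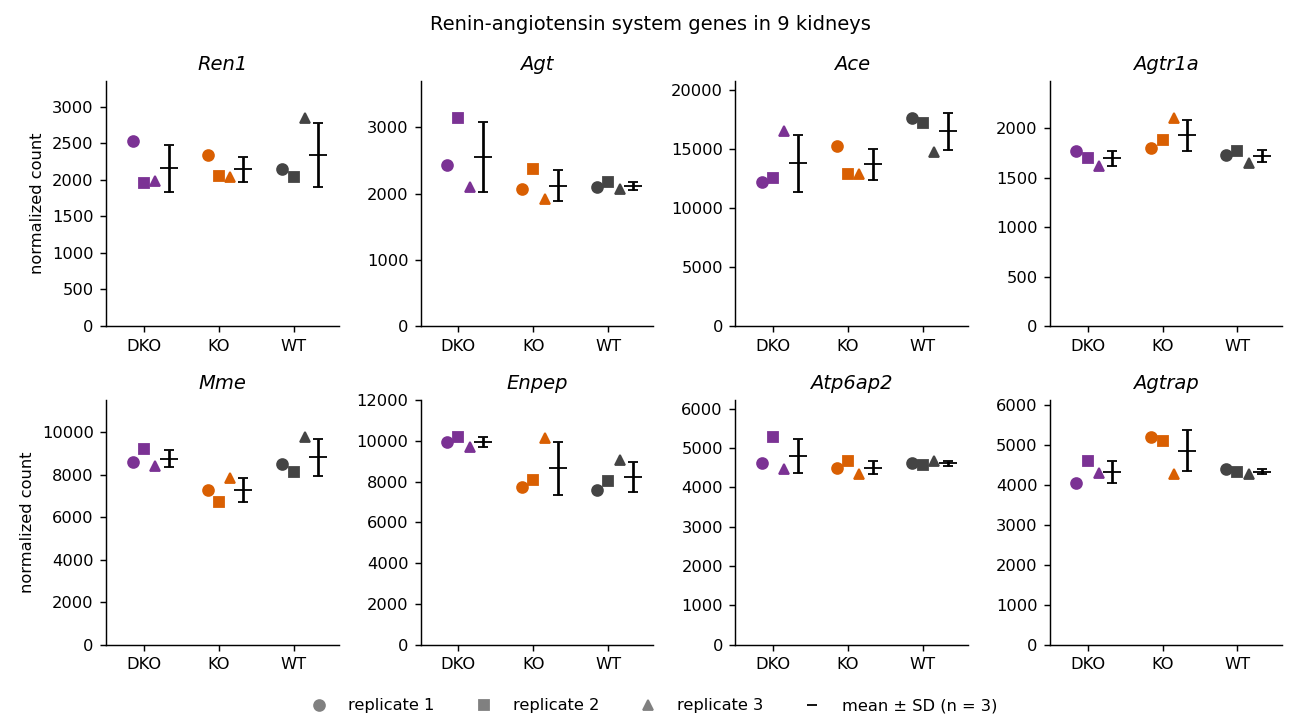
Normalized counts of the 8 genes in each mouse by genotype (DKO, KO, WT from left to right). Symbols mark the replicate number, which is not known to link mice across genotypes, and bars give mean ± SD (n = 3). Groups overlap for every gene except Mme and Agtr1a, where KO stands apart from both other genotypes, and Enpep, where DKO stands above WT.

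Ace, on chromosome 11, encodes angiotensin-converting enzyme, a peptidase of endothelium and of the proximal tubule brush border. It stood at 12182, 12558 and 16500 in DKO, at 15220, 12868 and 12893 in KO, and at 17557, 17178 and 14680 in WT mice. Each mutant group held 2 mice below every WT mouse and 1 mouse within the WT range. Means were 13747 ± 2392 in DKO, 13661 ± 1351 in KO and 16472 ± 1563 in WT. In log2 terms it differed by -0.27 ± 0.13 in both DKO against WT (limma adjusted p = 0.459) and KO against WT (adjusted p = 0.314), each with a 95% interval from -0.56 to 0.02. DKO and KO differed by -0.00 ± 0.13 (-0.29 to 0.29, adjusted p = 1.0). Leaving out 1 library at a time moved the DKO against WT value between -0.41 and -0.19 and the KO against WT value between -0.35 and -0.22, and neither was called in any of the 21 alternative settings. Endothelial markers, of which 0 of 8 were called in any comparison, summed to 17439 to 19837 in DKO, 17315 to 20229 in KO and 19090 to 20885 in WT, with none at 0 in all mice. The part of endothelial RNA in the Ace values was not tested.

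Agtr1a, on chromosome 13, encodes the type 1a angiotensin receptor, the main type 1 receptor of the mouse kidney. It stood at 1769, 1697 and 1622 in DKO, at 1804, 1882 and 2102 in KO, and at 1730, 1773 and 1650 in WT mice. Every KO mouse lay above every mouse of the other genotypes, though KO 1 did so only narrowly. Means were 1696 ± 73.6 in DKO, 1929 ± 154 in KO and 1718 ± 62.1 in WT. The fitted log2 difference was -0.02 ± 0.08 in DKO against WT (95% interval -0.19 to 0.15, limma adjusted p = 0.95), -0.18 ± 0.08 in DKO against KO (-0.36 to -0.01, adjusted p = 0.425) and 0.17 ± 0.08 in KO against WT (-0.01 to 0.34, adjusted p = 0.296). Both comparisons with KO rest on the same KO mice. The close copy Agtr1b was nearly silent, at 0 to 4.51 in any mouse, and Agtr2, the type 2 receptor of the embryonic kidney, at 0 to 3.38, and both fell under the filter.

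Mme and Enpep are surface peptidases of the proximal tubule, on chromosome 3, and podocytes carry them too. Mme encodes neprilysin, which degrades angiotensins, bradykinin and natriuretic peptides. It stood at 8610, 9183 and 8415 in DKO, at 7296, 6686 and 7841 in KO, and at 8514, 8143 and 9774 in WT. Every KO mouse lay below every mouse of the other genotypes. Means were 8736 ± 399 in DKO, 7274 ± 578 in KO and 8810 ± 855 in WT. The log2 difference was -0.01 ± 0.09 in DKO against WT (95% interval -0.21 to 0.19, limma adjusted p = 0.982), 0.27 ± 0.09 in DKO against KO (0.07 to 0.46, adjusted p = 0.285) and -0.27 ± 0.09 in KO against WT (-0.47 to -0.08, adjusted p = 0.145). These values missed the threshold in each of the 21 alternative settings. The lowest limma adjusted p over these settings was 0.0693 for DKO against KO, with WT 3 and KO 3 both left out. For KO against WT it was 0.0977, without KO 3. On leaving out 1 library the lowest limma adjusted p for DKO against KO was 0.140.

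Enpep encodes aminopeptidase A, which turns angiotensin II into angiotensin III. It stood at 9954, 10189 and 9715 in DKO, at 7718, 8091 and 10138 in KO, and at 7568, 8049 and 9035 in WT mice. Every DKO mouse lay above every WT mouse, and KO 3 lay among the DKO mice while the other KO mice lay within the WT range. Means were 9953 ± 237 in DKO, 8649 ± 1303 in KO and 8217 ± 748 in WT. On the log2 scale the difference was 0.28 ± 0.11 in DKO against WT (95% interval 0.04 to 0.52, limma adjusted p = 0.353), 0.21 ± 0.11 in DKO against KO (-0.03 to 0.45, adjusted p = 0.547) and 0.07 ± 0.11 in KO against WT (-0.18 to 0.31, adjusted p = 0.787). With WT 3 and KO 3 both left out, DKO against KO reached 0.33 and passed (limma adjusted p = 0.0483), the only call of a member in any setting.

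Members whose groups did not overlap were thus Enpep in DKO against WT (1 of 8), Mme and Agtr1a in DKO against KO (2 of 8) and the same pair in KO against WT (2 of 8). Over all genes tested the groups did not overlap for 18.3%, 15.2% and 25.2% in the same order. Podocyte markers, beside Mme and Enpep, summed to 14517 to 15861 in DKO, 13084 to 13911 in KO and 15332 to 15700 in WT, and 0 of 5 were called in any comparison. Every KO mouse thus lay below the other genotypes in this sum too. Podxl, the most abundant of the 5, averaged 8983 ± 739 in DKO, 7836 ± 253 in KO and 9287 ± 278 in WT. Singly, every KO mouse lay below every WT mouse for 2 of the 5 and below every DKO mouse for 1. The part of the podocyte sum in the Mme values was not tested. Of 9 tested brush border peptidases from a list of 10, Anpep among them, 0 were called in any comparison, with median log2 values of 0.06 in DKO against WT, 0.06 in DKO against KO and -0.02 in KO against WT. The most abundant, Mep1a, the meprin A subunit, averaged 89493 ± 7214 in DKO, 93020 ± 5792 in KO and 94055 ± 4084 in WT.

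Atp6ap2, on the X chromosome, encodes the prorenin receptor, which is also an accessory protein of the vacuolar proton pump. It stood at 4621, 5288 and 4470 in DKO, at 4504, 4676 and 4344 in KO, and at 4614, 4561 and 4683 in WT mice. DKO 2 was highest and the other mice lay close together. Means were 4793 ± 435 in DKO, 4508 ± 166 in KO and 4619 ± 60.9 in WT. In log2 terms it differed by 0.05 ± 0.07 in DKO against WT (95% interval -0.12 to 0.21, limma adjusted p = 0.842), 0.09 ± 0.07 in DKO against KO (-0.08 to 0.25, adjusted p = 0.782) and -0.04 ± 0.07 in KO against WT (-0.20 to 0.13, adjusted p = 0.838).

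Subunits of the pump itself were read from a list of 22, of which 21 were tested. In KO against WT 2 fell, 0 rose and 19 were not called, with a median log2 of -0.16. Of the 21 fold changes 17 were negative and 4 positive. For 11 of the 21 every KO mouse lay below every WT mouse, as for 12.8% of all genes, and for 0 above. In DKO against KO and DKO against WT 0 were called, with medians of 0.09 and -0.05. Both subunits called as lower, Atp6v1g3 and Atp6v1c2, are known from acid-secreting intercalated cells. Atp6v1g3 averaged 1152 ± 54.2 in DKO, 853 ± 98.0 in KO and 1266 ± 19.0 in WT (KO against WT -0.58 ± 0.09, limma adjusted p = 0.0171). That call was lost without WT 1, WT 2 or KO 1 (adjusted p from 0.0673 to 0.0788). Atp6v1c2 averaged 790 ± 64.7, 605 ± 11.2 and 848 ± 73.3 in DKO, KO and WT (KO against WT -0.48 ± 0.09, limma adjusted p = 0.0355). Its call was lost when DKO 2 or any single WT or KO mouse was left out (adjusted p up to 0.126). For Atp6v1g3 and Atp6v1c2, edgeR gave adjusted p of 0.236 and 0.315 and DESeq2 0.0313 and 0.161, so DESeq2 called Atp6v1g3. Intercalated cell markers, 3 of which are pump subunits, summed to 9960 to 14395 in DKO, 9084 to 9375 in KO and 11849 to 12416 in WT mice, and 1 of 6, Atp6v1g3 itself, was called in KO against WT. Without DKO 3 the marker Atp6v1b1, another pump subunit, passed as lower in KO against WT (limma adjusted p = 0.0240) and higher in DKO against KO (adjusted p = 0.0224). Atp6ap1, the other accessory subunit, chosen for its role after its values were seen, averaged 8261 ± 386 in DKO, 7673 ± 349 in KO and 8567 ± 567 in WT and was not called.

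Agtrap, on chromosome 4, encodes the type 1 receptor-associated protein, which binds the receptor's tail and promotes its uptake into the cell. It stood at 4051, 4611 and 4299 in DKO, at 5206, 5099 and 4268 in KO, and at 4405, 4325 and 4281 in WT mice. KO 1 and KO 2 were above all other mice, and KO 3 was below every WT mouse. Means were 4320 ± 281 in DKO, 4858 ± 514 in KO and 4337 ± 62.8 in WT. The fitted log2 difference was -0.01 ± 0.09 in DKO against WT (95% interval -0.20 to 0.19, limma adjusted p = 0.984), -0.17 ± 0.09 in DKO against KO (-0.36 to 0.03, adjusted p = 0.564) and 0.16 ± 0.09 in KO against WT (-0.04 to 0.35, adjusted p = 0.370).

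Summed fibroblast and macrophage markers were higher in KO 1 and KO 2 than in KO 3, and in both sums KO 3 lay narrowly above every WT mouse. Fibroblast markers summed to 4680 to 5749 in DKO mice, to 13273, 13908 and 8576 in KO 1, KO 2 and KO 3, and to 5963 to 8451 in WT mice. Macrophage markers summed to 4418 to 5257 in DKO, to 7402, 7293 and 5594 in KO 1, KO 2 and KO 3, and to 4625 to 5437 in WT. Taken singly, 3 of 6 fibroblast and 1 of 6 macrophage markers had every KO mouse above every WT mouse. Over all genes tested, 25.2% did not overlap in KO against WT, in either direction. Col1a2, a fibroblast marker, was lower in KO 3 (1994) than in any WT mouse (2055 to 2249). The macrophage marker Csf1r was highest in KO 3 (3526, against 3469 in KO 1 and 3277 in KO 2). Of 6 fibroblast markers, 1 fell in DKO against KO (Col1a1, a collagen chain, log2 -2.06 ± 0.29, limma adjusted p = 0.0335) and 0 were called in the other comparisons, and of 6 macrophage markers 0 were called. Col1a1 was no longer called without WT 1, KO 1, KO 2 or any DKO mouse, with a limma adjusted p of 0.140 at most, edgeR missed it (0.189) and DESeq2 called it (1.21e-06). Without KO 3, Col1a1 and Col1a2, another collagen chain, passed as higher in KO against WT (limma adjusted p of 0.0484 and 0.0240). Mesangial markers, where Agtr1a is one of 5, summed to 4538 to 4914 in DKO, 4715 to 5363 in KO and 4767 to 5106 in WT, with 0 called. The part of these cell types in the values of Agtrap and Agtr1a was not tested.

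Downstream of the receptor, 0 of 18 tested genes for its signalling and trafficking were called in any comparison, with median log2 values of -0.11 in DKO against WT, -0.05 in DKO against KO and 0.05 in KO against WT. The most abundant was Nox4, an oxidase of tubule cells, at 20428 ± 5166 in DKO, 19484 ± 1795 in KO and 17388 ± 1061 in WT. Genes of the aldosterone and mineralocorticoid response showed 1 fall and 0 rises among 20 in KO against WT, with a median log2 of -0.32, against 0.0043 for all genes tested. For 10 of the 20 every KO mouse lay below every WT mouse, as for 12.8% of all genes, and for 0 above. In DKO against KO 0 were called and 19 of 20 fold changes were positive, with a median of 0.25. Yet for only 1 of the 20 did every DKO mouse lie above every KO mouse, and for 0 below. The groups did not overlap for 15.2% of all genes tested there, in either direction, and both comparisons with KO share its mice. In DKO against WT 0 were called, with a median of -0.10. The gene that fell, Stk39, encodes the SPAK kinase that activates the thiazide-sensitive cotransporter. It averaged 1494 ± 77.2 in DKO, 1280 ± 112 in KO and 1709 ± 77.0 in WT (KO against WT -0.42 ± 0.08, limma adjusted p = 0.0368), and the call was lost without WT 1, WT 2, DKO 1, DKO 2 or any KO mouse (highest adjusted p = 0.140) and with edgeR (0.375) and DESeq2 (0.278).

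**Figure D3:**
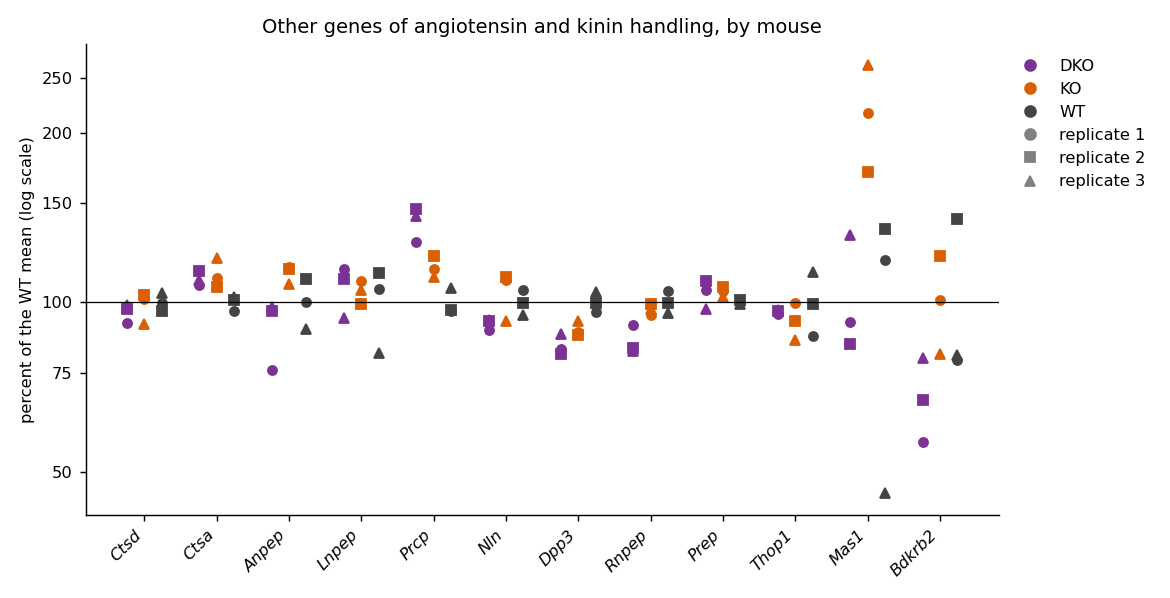
Further angiotensin and kinin genes in each mouse, as a percent of its WT mean on a log axis, with DKO left of KO and KO left of WT for each gene. Prcp is ordered DKO above KO above WT with no overlap, and all KO mice lie above the other mice for Mas1.

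Of 21 further genes that handle or sense angiotensins and kinins, 18 were in the table and 13 passed the filter, and 0 of 13 were called in each comparison. Mrgprd, Ctsg and Ren2 were not analysed here. The median log2 over the 13 was -0.05 in DKO against WT, -0.04 in DKO against KO and 0.06 in KO against WT. Every DKO mouse lay above every WT mouse for 2 of the 13 and below for 3. In DKO against KO this was 1 above and 4 below, and in KO against WT 4 above and 1 below. Over all genes tested the groups did not overlap for 18.3%, 15.2% and 25.2% in the same order, in either direction. Under the filter were Agtr1b, Agtr2, Bdkrb1, the inducible kinin receptor, and the mast cell proteases Cma1 and Cpa3. Cma1, a chymase, was listed at 0 in all DKO mice, at 1.87 to 4.97 in KO and at 0 to 3.38 in WT. Of 6 mast cell markers only Kit, which other cells share, was above the filter.

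Prcp, prolylcarboxypeptidase, removes the last residue of angiotensin II and of angiotensin III. It stood at 3434, 3944 and 3822 in DKO, at 3084, 3250 and 2982 in KO, and at 2597, 2609 and 2855 in WT mice. Every DKO mouse lay above every KO mouse, and every KO mouse above every WT mouse. The log2 difference of 0.47 ± 0.07 in DKO against WT just missed the threshold (limma adjusted p = 0.0516). It passed without WT 3 (limma adjusted p = 0.0444), with a mean of at least 50 as the filter (0.0473), with DESeq2 on 7 libraries (0.0301) and in 3 other settings, while over all settings its adjusted p ran up to 0.457. DKO against KO was 0.26 ± 0.07 (limma adjusted p = 0.213) and KO against WT 0.21 ± 0.07 (adjusted p = 0.186).

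Mas1 encodes the receptor for a vasodilator peptide cut from angiotensin II. It stood at 72.2, 66.1 and 103 in DKO, at 170, 134 and 207 in KO, and at 93.4, 106 and 35.9 in WT mice. Every KO mouse lay above all others, and WT 3 was lowest. The log2 difference was 1.23 ± 0.39 in KO against WT (limma adjusted p = 0.139, and from 0.128 to 0.464 over the alternatives), -1.07 ± 0.39 in DKO against KO (adjusted p = 0.335) and 0.15 ± 0.39 in DKO against WT (adjusted p = 0.914).

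Among the remaining aminopeptidases, Anpep (aminopeptidase N, which shortens angiotensin III) stood at 7523, 9584 and 9751 in DKO, below 11496, 11394 and 10705 in KO, and at 9963, 10922 and 8897 in WT (DKO against KO -0.33 ± 0.11, limma adjusted p = 0.298). Rnpep, aminopeptidase B, averaged 1236 ± 70.8 in DKO, 1408 ± 32.3 in KO and 1448 ± 64.0 in WT. Dpp3, a cytosolic dipeptidyl peptidase that degrades angiotensin II, averaged 1665 ± 73.7 in DKO, 1780 ± 54.5 in KO and 1986 ± 79.3 in WT. All DKO mice lay below all WT mice for both, with log2 differences of -0.23 ± 0.07 for Rnpep (limma adjusted p = 0.268) and -0.25 ± 0.07 for Dpp3 (adjusted p = 0.188). All DKO mice also lay below all KO mice for Rnpep (limma adjusted p = 0.355), and all KO mice below all WT mice for Dpp3 (adjusted p = 0.251). Lnpep, the insulin-regulated aminopeptidase that binds angiotensin IV, averaged 3311 ± 342, 3260 ± 154 and 3120 ± 516 in DKO, KO and WT. The endopeptidases Nln, Thop1 and Prep and the lysosomal proteases Ctsa and Ctsd had log2 differences between -0.18 and 0.16 in all 3 comparisons. For Ctsa, lysosomal carboxypeptidase A, all DKO mice (0.14 ± 0.06, limma adjusted p = 0.439) and all KO mice (0.16 ± 0.06, adjusted p = 0.221) lay above WT. All DKO mice lay below WT for Nln (-0.12 ± 0.08, limma adjusted p = 0.609). All KO mice lay above WT for Prep (0.06 ± 0.07, limma adjusted p = 0.656). Bdkrb2, the constitutive kinin receptor, was low, at 14.7 ± 2.52 in DKO, 21.9 ± 4.31 in KO and 21.6 ± 7.61 in WT. All DKO mice lay below KO for Bdkrb2 (limma adjusted p = 0.629).

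Levels of different genes were compared per kilobase of exon, with lengths from GENCODE M21, which may differ from the authors' annotation. In every genotype Ace was highest, at 2694 ± 469 normalized counts per kilobase in DKO, 2678 ± 265 in KO and 3228 ± 306 in WT, though in DKO it overlapped with Enpep. In WT kidneys Atp6ap2 (1988 ± 26.2) and Enpep (1965 ± 179) came next and overlapped, then Ren1 (1470 ± 273), which overlapped neither neighbour. Below it Agt (1116 ± 30.3), Agtrap (1085 ± 15.7) and Mme (1027 ± 99.7) overlapped in turn, and Agtr1a was lowest at 781 ± 28.3. In KO kidneys Mme came last, at 848 ± 67.4, where it overlapped with Agtr1a at 877 ± 70.1. In DKO kidneys Enpep (2380 ± 56.6) stood above Atp6ap2 (2062 ± 187) without overlap, and Agt (1352 ± 280) was level with Ren1 (1354 ± 203).

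**Figure D4:**
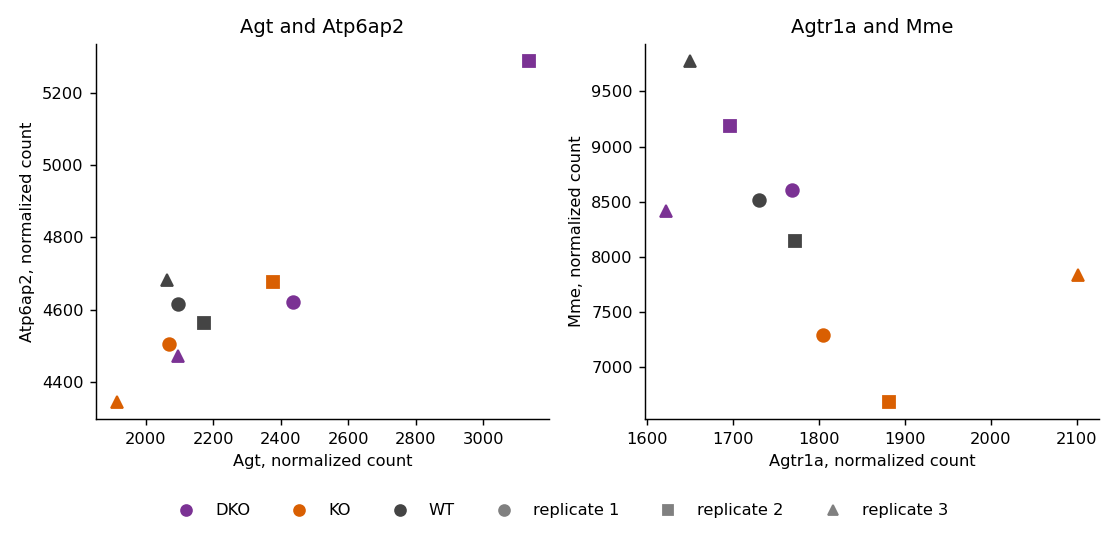
Normalized counts of Atp6ap2 against Agt (left) and of Mme against Agtr1a (right) in the 9 mice, coloured by genotype, with symbols for the replicate number. DKO 2 is the far point on the left, and on the right the KO mice hold the high Agtr1a and the low Mme values.

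Likeness between genes was measured as Pearson's r of log2(normalized count + 1) over the 9 mice, which mixes genotype with mouse, and is given as a description. Among members the closest pair was Agt and Atp6ap2 (r = 0.923, Spearman's rho = 0.60). Both were highest in DKO 2, and without that mouse r was 0.665. Agtr1a and Mme, the genes for which KO stood apart, ran opposite (r = -0.599, rho = -0.767). Their deviations from the genotype means did not (r = 0.097). Other pairs were more negative over the mice: Mme and Agtrap (r = -0.678, and -0.323 over deviations) and Ace and Enpep (-0.613, and -0.551 over deviations). Over deviations the lowest values were -0.76 for Agtr1a and Agtrap and -0.737 for Enpep and Agtrap. Mme and Enpep had r = 0.447 over the mice and 0.732 over deviations from the genotype means.

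Of 13146 genes with a mean of at least 50, those most like each member were as follows. Ren1 was closest to Kcnk2 (r = 0.919), a background potassium channel, then 2810008D09Rik (0.896) and Trappc2 (0.889), and without WT 3 and DKO 1, the mice farthest from its median, the first of these fell to 0.682. Agt was closest to Fbxl19 (0.967), Kansl1 (0.954) and Ampd3 (0.944), and Atp6ap2 to Foxo1 (0.976), Rab3gap1 (0.961) and Oat (0.952). Without DKO 2 and KO 3 the r of Atp6ap2 with Foxo1 was 0.673. Ace was closest to Vill (0.969), to Kdr (0.935), the endothelial VEGF receptor and one of the endothelial markers above, and to Trmt10a (0.928). Without its 2 farthest mice Ace kept r = 0.891 with Kdr, and without DKO 2 it was 0.971. Eng, the most abundant of the endothelial markers, was highest in DKO 2 among DKO mice (4101), where Ace was highest in DKO 3. Among KO mice Eng was highest in KO 2 (4096) and Ace in KO 1, and among WT mice both were highest in WT 1. Agtr1a was closest to Oscp1 (0.988), Wdr76 (0.964) and Tor2a (0.955), and Mme to Mccc2 (0.965), Rilp (0.964) and Lmf1 (0.960). Enpep was closest to 8430408G22Rik (0.948), Ap1ar (0.947) and Ipmk (0.927), and Agtrap to Arl4c (0.971), Acss3 (0.968) and Lgals1 (0.965), the galectin-1 gene. The closest genes were picked for their r out of all genes compared, so no p is given.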

How the data were processed

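Kidney poly(A) libraries of 9 mice were analysed from 1 table of normalized counts per gene, a signal deposited by the authors. STAR 2.5.0, HTSeq 0.6.1 and DESeq2 are named in the submitters' processing notes. Build, annotation and use of strand were not given in the sources used here, and reads of a gene that overlaps another may therefore count for either. The table has 22161 rows, 25 of them with names turned into dates. Groups came from the sample titles. One limma fit (3.58.1, R 4.3.3, intensity trend, 6 residual degrees of freedom) was made on log2(normalized count + 1) for 15740 genes whose mean reached 10, with Benjamini-Hochberg adjustment and a two-sided threshold of 0.05. Named were all members, all measured further angiotensin and kinin genes, the called genes (at most 4) and the most abundant uncalled gene of each other list, and for each member the 3 most correlated genes; genes outside this are said to be so. Of the genes this takes in, 2 are not reported here. Members and lists were chosen with earlier results of these data known.

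Dividing a column by the value of 1 read gave whole numbers for 100% of values (tolerance 0.05), which recovered 37056843 to 47314829 reads in 7 libraries. In WT 1 and KO 1 this value lies too near 1, so these 2 libraries entered no count test. On the 7 libraries edgeR 4.0.16 called 10 genes in DKO against WT, 10 in DKO against KO and 11 in KO against WT, and DESeq2 1.42.0 was also run. Further settings were a pseudocount of 0.1 or 10, a filter at a mean of 50 or none, TMM and quantile scaling, only the groups compared, a replicate block, leaving out each mouse, and leaving out WT 3 and KO 3 together. A limma fit to the 7 libraries was added after seeing the data. The scripts were tested on simulated data. Reads carry no molecular identifiers, so errors are those between mice. Mice sharing a name prefix may be related, and p-values would then be too small. Promoter windows are from RefSeq (GRCm38.p6).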

Additional observations from a re-analysis of the deposited data

How the results depend on the processing

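Of 504 member values recomputed under 21 alternatives, 34 changed sign, 20 of them on leaving out 1 mouse, and 13 of the 24 member comparisons never did. The values that changed sign lay near 0. In DKO against WT, Agtrap was 0.0092 with edgeR, 0.0062 with DESeq2 and 0.0038 with limma on the 7 libraries with recovered reads, and without WT 3 and KO 3 Ren1 was 0.034 and Mme 0.068. In DKO against KO, Ace was 0.0094 with TMM scaling, 0.090 with edgeR, 0.092 with DESeq2 and 0.080 with limma on 7 libraries, and Ren1 was -0.018 with quantile scaling and -0.034 without WT 3 and KO 3. In KO against WT, Agt was -0.0047 with TMM scaling, and without WT 3 and KO 3 Ren1 was 0.068 and Atp6ap2 0.00045. Leaving out 1 mouse at a time gave, in DKO against WT, -0.049 to 0.013 for Agtr1a, -0.056 to 0.038 for Agtrap, -0.023 to 0.098 for Atp6ap2, -0.063 to 0.068 for Mme and -0.23 to 0.034 for Ren1. In DKO against KO it gave -0.14 to 0.080 for Ace and -0.12 to 0.065 for Ren1, and in KO against WT -0.085 to 0.071 for Agt, -0.052 to 0.14 for Enpep and -0.21 to 0.032 for Ren1. The number of members called stayed 0 in every setting except DKO against KO without WT 3 and KO 3, where it was 1 (Enpep, log2 0.33).

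The number of all genes called depended on the setting. In DKO against WT it was 36, against 10 with edgeR, 111 with DESeq2, 111 without WT 3 and KO 3, 11 with limma on 7 libraries and 18 to 58 on leaving out 1 mouse. In DKO against KO it was 62, against 31 with quantile scaling, 26 with only the groups compared, 10 with edgeR, 149 with DESeq2, 308 without WT 3 and KO 3, 11 with limma on 7 libraries and 8 to 154 on leaving out 1 mouse. In KO against WT it was 377, against 11 with edgeR, 296 with DESeq2, 517 without WT 3 and KO 3, 13 with limma on 7 libraries and 70 to 436 on leaving out 1 mouse. The cause of these differences was not tested. Some of these fits hold fewer mice, and among those some called more genes and some fewer. With the replicate number as a block the counts were 20 in DKO against WT, 15 in DKO against KO and 217 in KO against WT, and 0 members were called in each. The sample titles do not say that the numbers pair the mice. Deviations of same-numbered mice correlated at 0.215, 0.019 and 0.109 in DKO against WT and at -0.079, -0.142 and -0.138 in DKO against KO. In KO against WT they correlated at 0.061, -0.080 and 0.052. For mice of unlike number the values ran from -0.23 to 0.126, from -0.04 to 0.173 and from -0.091 to 0.073 in the same order. With 3 mice a group these values cannot settle whether the numbers pair mice. With 3 mice a group the members' unadjusted intervals reach 0.16 to 0.32 to either side on the log2 scale, and adjustment over all genes raises the size needed for a call: Mme at -0.27 in KO against WT and Enpep at 0.28 in DKO against WT were not called.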
